A study of Mus musculus with 4 samples.

Results

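Axon guidance ligands and receptors were followed in wild type and *Mst-/-* EBs. The genes were chosen by symbol: the semaphorins of the Sema3 to Sema7 groups, plexins, neuropilins, Eph receptors, ephrins, Slits, Robos, netrins, the Unc5 receptors, *Dcc* and *Neo1*. By this rule 63 of the 16358 genes with an array signal were members, measured by 1503 probe sets. The family was picked with earlier results of these arrays in view, so each value below is a description. Embryoid bodies (EBs) are floating clusters of ES cells that start to differentiate towards the germ layers once 2i and LIF are withdrawn. RNA of wild type and Mst1/Mst2 knockout (*Mst-/-*) EBs was taken at day 4 and day 8 and hybridized to Affymetrix mouse exon arrays, 1 array for each genotype and day and 4 arrays in all. Mst1 and Mst2 are the kinases at the top of the Hippo pathway, and the knockout ES cells came from blastocysts of Mst1+/-, Mst2-/- parents on C57BL/6. That cross gives no wild type embryos, and the origin and strain of the wild type line are not stated. The study derived several *Mst-/-* lines and does not say which one was hybridized. Line, strain and deletion thus cannot be told apart, and none can be set against a spread between cultures.

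These genes are best known from the growing axon, where the tip of the cell reads attractive and repellent cues. Semaphorins signal through plexins, and the secreted ones need a neuropilin as co-receptor in most cases. Ephrins sit on the membrane and meet Eph receptor tyrosine kinases on the neighbouring cell. Slits act through Robo receptors, and netrins through *Dcc*, *Neo1* and the Unc5 receptors. Many of them also steer vessels, heart and migrating mesoderm: *Nrp1* is a co-receptor of VEGF, and *Ephb4* and *Efnb2* mark veins and arteries.

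The promoters of the genes that differed most between the genotypes at day 4 are shown first, to put letters beside the values that follow. They are the 3 lower and the 2 higher members with the largest differences among those with 1 promoter in the RefSeq table (GRCm38.p6). Each run holds the 250 bases before the start site, 5′ to 3′. Capitals mark the TEAD core GGAATG, which the partners of YAP bind, and the GC box GGGCGG, on either strand.
*Nrp1* (chr8:128358823-128359072, plus strand): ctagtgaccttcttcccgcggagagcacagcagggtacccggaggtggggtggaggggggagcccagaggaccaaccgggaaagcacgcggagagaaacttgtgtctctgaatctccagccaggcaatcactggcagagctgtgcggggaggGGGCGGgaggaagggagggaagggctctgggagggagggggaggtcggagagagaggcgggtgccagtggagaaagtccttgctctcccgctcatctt
*Sema3a* (chr5:13396534-13396783, plus strand): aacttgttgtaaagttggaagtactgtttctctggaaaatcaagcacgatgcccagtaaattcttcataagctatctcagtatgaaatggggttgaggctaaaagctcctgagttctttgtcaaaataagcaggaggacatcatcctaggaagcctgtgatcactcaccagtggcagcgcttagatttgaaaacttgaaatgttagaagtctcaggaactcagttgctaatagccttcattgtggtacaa
*Plxna2* (chr1:194619579-194619828, plus strand): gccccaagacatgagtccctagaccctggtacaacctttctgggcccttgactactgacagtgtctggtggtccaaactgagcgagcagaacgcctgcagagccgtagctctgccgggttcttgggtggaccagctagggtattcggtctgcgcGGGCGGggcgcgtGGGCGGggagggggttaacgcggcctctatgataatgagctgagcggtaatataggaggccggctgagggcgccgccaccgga
*Sema3e* (chr5:14025026-14025275, plus strand): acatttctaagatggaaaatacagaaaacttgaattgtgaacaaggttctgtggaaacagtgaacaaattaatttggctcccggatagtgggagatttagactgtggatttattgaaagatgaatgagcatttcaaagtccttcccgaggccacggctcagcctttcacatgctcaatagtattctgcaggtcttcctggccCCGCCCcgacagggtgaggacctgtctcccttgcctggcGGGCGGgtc
*Epha2* (chr4:141300971-141301220, plus strand): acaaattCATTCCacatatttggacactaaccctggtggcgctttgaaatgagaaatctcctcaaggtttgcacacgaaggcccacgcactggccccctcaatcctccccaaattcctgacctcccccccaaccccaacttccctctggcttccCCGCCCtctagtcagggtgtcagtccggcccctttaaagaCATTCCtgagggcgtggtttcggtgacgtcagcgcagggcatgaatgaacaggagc
*Epha2* alone among these 5 held the TEAD core, at -243 and at -56 from the start site, both on the reverse strand. *Sema3a* held neither motif and had a GC content of 40.8%, against 64.4% for *Nrp1* and 62.8% for *Plxna2*. Of the members, 53 had a promoter in the table, 67 promoters in all. The TEAD core was in 8 of these 67 (11.9%), beside 12.6% of all 32851 promoters of the table. The GC box was in 47 of the 67 (70.1%), beside 32.7% of all promoters and 42.6% of those of protein-coding genes. The motifs did not overlap in the printed promoters. A match is a run of letters and not a measured binding site.

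A gene's signal is the median over its probe sets, on the log2 scale. As background of an array served the 95th percentile of its signals for 1015 receptor genes of smell and pheromones, which lay between 6.91 and 7.03. Above it on all 4 arrays were 48 members, and 11 were above it on 1 to 3 arrays. *Dcc*, *Epha5*, *Epha6* and *Ephb1* were below it on every array. By single array, 51 to 56 of the 63 members were above it, beside 11378 to 11788 of all 16358 genes. A gene with at least 1 of both arrays above background was compared. The error given with a difference is the SD among the probe sets of that gene, a technical spread within the same arrays. Where the dimmer of both arrays lay under its background, the background took its place for the fold alone, which is given as "at least" or as a bound. Log2 differences, counts, medians and figures use the signals as measured. *Ntn4* and *Sema3d* were thus counted as lower and *Sema3c* as higher at day 4, although their bounds lay within 1.5-fold (1.45-fold, 1.10-fold and 1.40-fold). The genotype labels were checked on *Stk4*, the gene of Mst1. Of its 13 probe sets, 2 had signals of 11.42 to 12.03 on the wild type arrays and 3.83 to 4.80 on the *Mst-/-* arrays. These 2 were picked by their loss between the day 4 arrays. Only their day 8 values, 11.42 to 11.44 in wild type and 3.87 to 4.36 in *Mst-/-* EBs, thus check the labels. They were not placed on exons, and the gene of Mst2 was not checked. On each array at least 11 of 12 pluripotency genes and at least 9 of 12 early mesoderm genes were above background. The same held for at least 9 of 11 visceral endoderm genes, beside 11378 to 11788 of all 16358 genes. These counts alone do not show which cell types the EBs held.

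**Figure D1:**
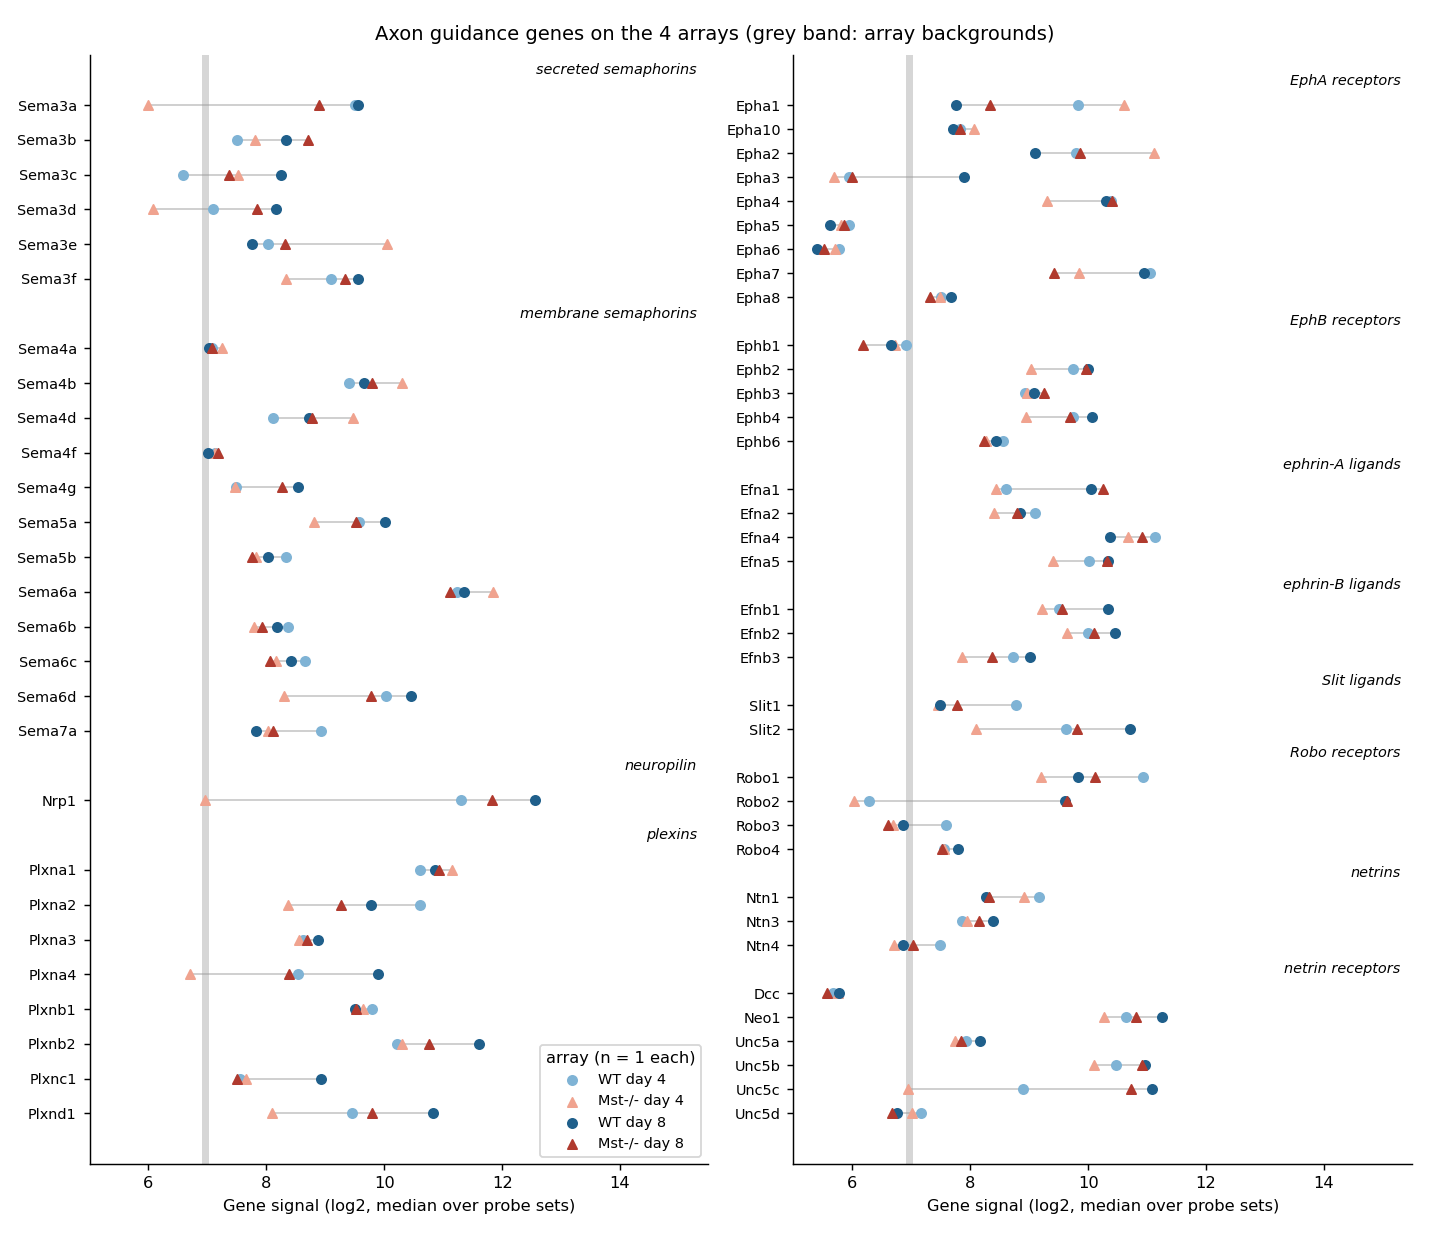
Signals of the 63 genes on the 4 arrays, grouped by role (x axis, log2 signal, 1 array per condition). Circles are wild type and triangles *Mst-/-* EBs, pale for day 4 and dark for day 8, and the grey band spans the array backgrounds from 6.91 to 7.03. The pale triangles of *Nrp1*, *Sema3a*, *Plxna4* and *Unc5c* sit at or below background, while their dark triangles lie between 8.38 and 11.82.

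At day 4 40 of the 57 guidance genes compared had less signal in *Mst-/-* than in wild type EBs, beside 5707 of all 11943 genes. Of the 57, 23 (40.4%) were over 1.5-fold lower and 7 (12.3%) over 1.5-fold higher, and 27 lay within 1.5-fold. Among all 11943 genes compared, 8.52% were lower and 10.3% higher. The median difference of the members was -0.38, and that of all genes 0.01. Lower genes came from each group: 3 of 6 secreted and 3 of 12 membrane semaphorins, *Nrp1*, and 3 of 8 plexins. They also held 2 of 6 EphA and 2 of 4 EphB receptors, 2 of 4 ephrin-A and 1 of 3 ephrin-B ligands. The others were both Slits measured, 2 of 3 Robos, 1 of 3 netrins and 1 of 5 netrin receptors. The 7 higher genes were 5 semaphorins and the receptors *Epha1* and *Epha2*. In such bulk RNA, fewer cells of a type and less RNA per cell cannot be told apart.

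**Figure D2:**
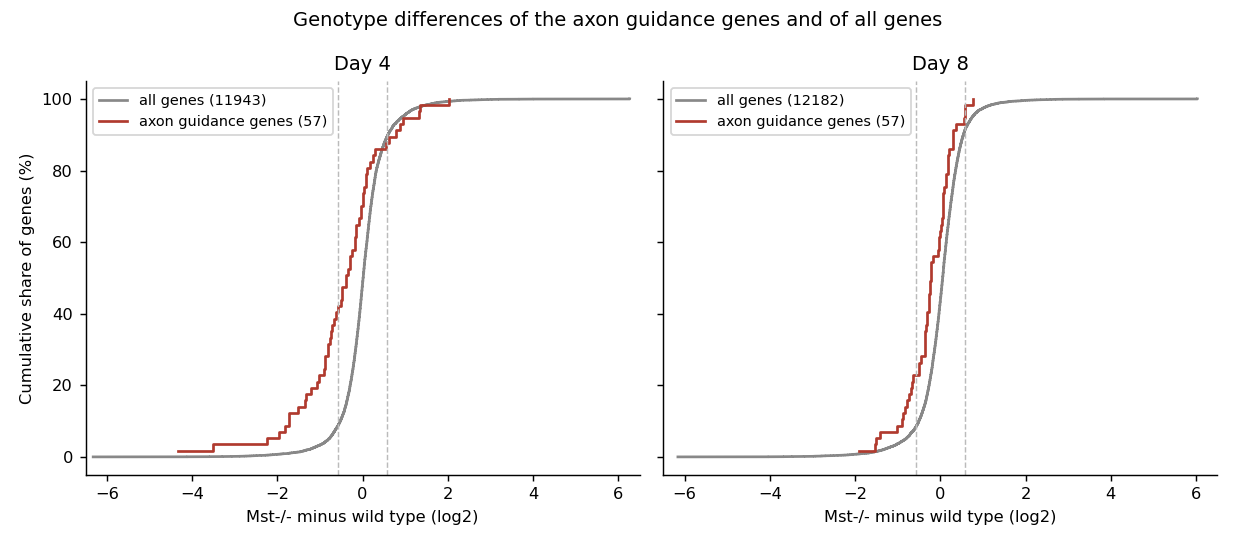
Cumulative share of genes (y axis, %) against the log2 difference *Mst-/-* minus wild type (x axis) at day 4 and day 8, for the guidance genes (red) and all genes compared (grey). Dashed lines mark 1.5-fold. At day 4 the red curve reaches 40.4% at the left line, where the grey curve reaches 8.52%, and at day 8 it reaches 22.8%, beside 8.21%.

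*Nrp1*, the co-receptor of secreted semaphorins and of VEGF, had the largest difference. Its signal was 11.30 and 12.56 in wild type EBs at day 4 and day 8, and 6.96 and 11.82 in *Mst-/-* EBs. Only the day 4 *Mst-/-* array was thus low, at the background of 6.96, with 11 of 22 probe sets above it. The difference was -4.34 ± 1.28 (SD over 22 probe sets), with each probe set lower in *Mst-/-* EBs, and since the *Mst-/-* signal stood at background, the 20.2-fold difference is close to a bound. The brightest *Nrp1* probe set, still at 11.42 on the day 4 *Mst-/-* array, gave only -0.60. At day 8 *Nrp1* was 1.66-fold lower (-0.73 ± 0.15).

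The ligand *Sema3a*, a repellent cue that acts through *Nrp1*, was also lowest on the day 4 *Mst-/-* array. Its wild type signals were 9.50 and 9.55 at day 4 and day 8, and those of *Mst-/-* EBs were 5.99 and 8.89. The day 4 *Mst-/-* array was below background, so that *Sema3a* was at least 5.82-fold lower there, and all of its 23 probe sets pointed this way (-1.27 by the brightest). At day 8 it was 1.58-fold lower (-0.66 ± 0.27), or -0.32 by its brightest probe set, within 1.5-fold.

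The A-type plexins, which carry the signal of *Sema3a* into the cell, split. *Plxna2* had signals of 10.60 and 9.77 in wild type EBs at day 4 and day 8 and of 8.37 and 9.26 in *Mst-/-* EBs, and it was 4.69-fold lower at day 4 (-2.23 ± 0.46, each of 40 probe sets lower). *Plxna4* was low in *Mst-/-* EBs on both days, with 6.70 and 8.38 against 8.54 and 9.89. This was at least 2.98-fold lower at day 4 and 2.84-fold lower at day 8, with -0.75 and -1.11 by the brightest probe set. *Plxna1* and *Plxna3*, by contrast, lay within 1.5-fold on both days, and *Plxna1* had 0.55 ± 0.15 at day 4.

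*Sema3e* ran the other way. It is the ligand of *Plxnd1* and signals without a neuropilin in vessels. Its signal was 8.02 and 7.75 in wild type EBs at day 4 and day 8 and 10.05 and 8.32 in *Mst-/-* EBs, so that the day 4 *Mst-/-* array stood above the other 3. The day 4 difference was 2.04 ± 0.63 (4.10-fold, all 20 probe sets higher), the largest higher value of the family, and the day 8 difference was 0.57 ± 0.47. *Plxnd1*, its receptor, had 9.46 and 10.82 in wild type EBs and 8.10 and 9.80 in *Mst-/-* EBs. At day 4 the receptor was thus lower and the ligand higher. *Plxnd1* was 2.57-fold lower at day 4 (-1.36 ± 0.82) and 2.03-fold lower at day 8 (-1.03 ± 0.32), with 42 and 43 of 44 probe sets lower. The brightest *Plxnd1* probe set alone gave 0.01 and 0.08.

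**Figure D3:**
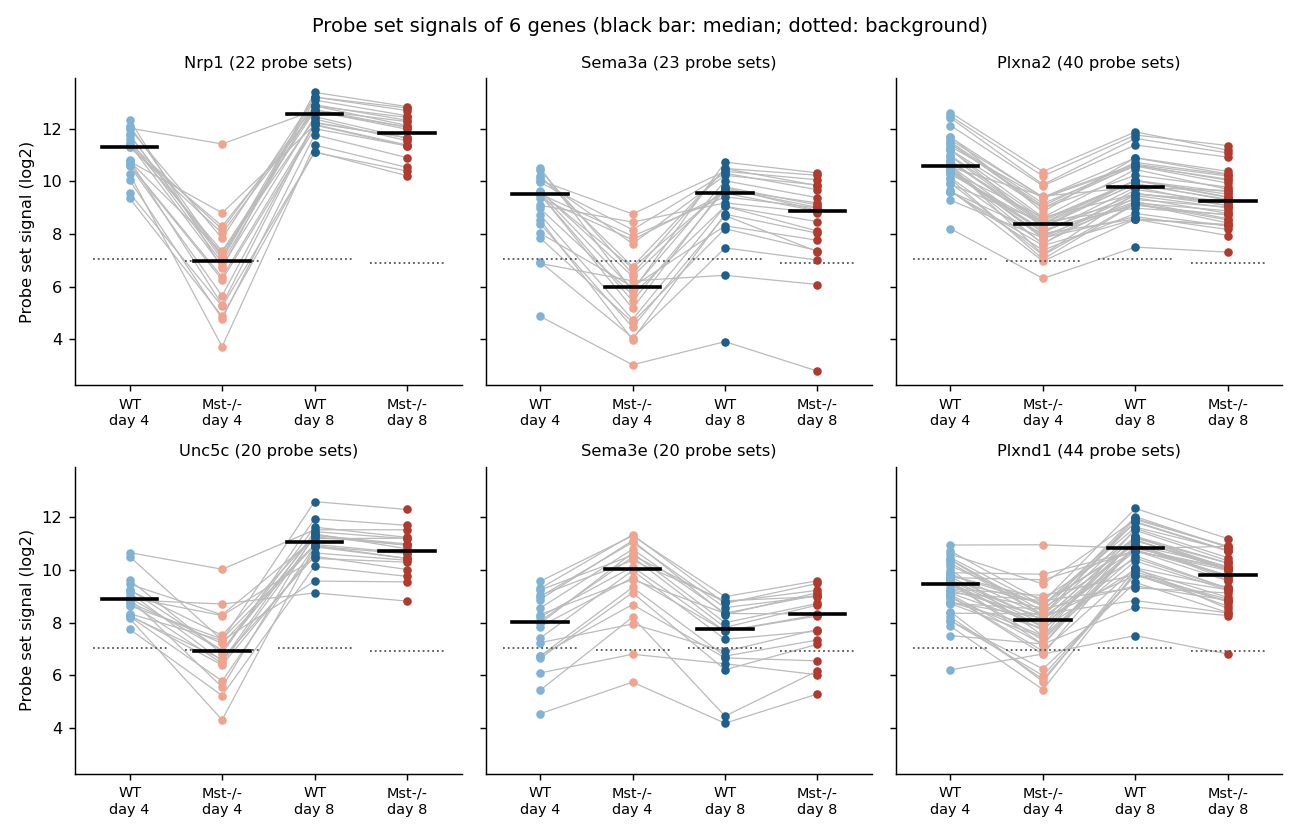
Signals of every probe set of 6 genes (y axis, log2) on the 4 arrays (x axis), with grey lines joining each probe set, black bars at the medians and dotted lines at the array backgrounds. The *Nrp1* median drops from 11.30 to 6.96 between the day 4 arrays, while the brightest probe set differs by -0.60 and ends at 11.42. The *Sema3e* median climbs from 8.02 to 10.05.

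Other semaphorins differed at day 4 in both directions. *Sema6d*, a membrane ligand of A-type plexins with a known role in the chick heart, had 10.03 and 10.46 in wild type EBs and 8.30 and 9.77 in *Mst-/-* EBs. It was 3.32-fold lower at day 4 (-1.73 ± 0.86, 26 of 27 probe sets) and 1.61-fold lower at day 8. *Sema5a* (-0.77 ± 0.40), *Sema3f* (-0.75 ± 0.44) and *Sema7a* (-0.90 ± 0.70) were lower at day 4 alone. *Sema7a* is tied to the membrane by a lipid anchor and binds *Plxnc1*. *Sema3d* had -1.01 ± 0.53, but both arrays were near background, and its bound was 1.10-fold. *Sema4d*, a ligand of B-type plexins, was 2.55-fold higher at day 4 (1.35 ± 0.44, 21 of 22 probe sets), with signals of 8.12 in wild type and 9.47 in *Mst-/-* EBs, and at day 8 the genotypes stood at 8.73 and 8.78. *Sema4b* (0.89 ± 0.46) and *Sema6a* (0.61 ± 0.17) were also higher at day 4 and within 1.5-fold at day 8. The *Sema4b* value had the opposite sign, -0.16, by its brightest probe set. *Sema3c*, which acts in the outflow tract of the heart, had 6.58 and 8.25 in wild type EBs and 7.52 and 7.37 in *Mst-/-* EBs. It was 1.84-fold lower in *Mst-/-* EBs at day 8, while its day 4 bound was 1.40-fold higher. The remaining semaphorins among the members, *Sema3b*, *Sema4a*, *Sema4f*, *Sema4g*, *Sema5b*, *Sema6b* and *Sema6c*, lay within 1.5-fold on both days.

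Among the Eph receptors, the A group split into higher and lower genes. *Epha2*, a receptor of epithelia and of early embryonic cells, was higher in *Mst-/-* EBs on both days. Its signals were 9.79 and 9.09 in wild type EBs and 11.11 and 9.86 in *Mst-/-* EBs, a difference of 1.32 ± 0.34 at day 4 (2.50-fold, all 19 probe sets) and 0.77 ± 0.40 at day 8 (1.71-fold). It was the one member over 1.5-fold higher at day 8. Its brightest probe set gave 0.57 and 0.20, both within 1.5-fold. *Epha1* was 1.71-fold higher at day 4 (0.77 ± 0.27, all 20 probe sets) and had 0.58 ± 0.37 at day 8, just inside the threshold of 0.585, with 0.06 at day 4 by the brightest probe set. *Epha7* was lower on both days, with 11.05 and 10.94 in wild type EBs against 9.84 and 9.42 in *Mst-/-* EBs. Here the difference was larger at day 8 (-1.53 ± 0.41, 2.88-fold) than at day 4 (-1.21 ± 0.32, 2.31-fold). *Epha4*, which binds ephrins of both groups, stood apart at day 4 alone, with 9.30 in *Mst-/-* EBs and between 10.31 and 10.40 on the other 3 arrays (-1.07 ± 0.16, all 20 probe sets). *Epha3* was above background only on the day 8 wild type array, at 7.90, and at least 1.99-fold lower in *Mst-/-* EBs of that day.

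The B receptors *Ephb4*, the receptor of veins, and *Ephb2* were 1.74-fold and 1.65-fold lower in *Mst-/-* EBs at day 4 (-0.80 ± 0.39 and -0.72 ± 0.46), with each of their 24 and 23 probe sets lower. At day 8 they had -0.36 and -0.04. *Efnb2*, the arterial ligand of *Ephb4*, lay within 1.5-fold, with -0.35 ± 0.19 and -0.36 ± 0.14. All 7 ephrins measured had values below 0 at day 4, as had 5707 of all 11943 genes compared. Among the ephrins, *Efna2* (-0.68 ± 0.14), *Efna5* (-0.62 ± 0.17) and *Efnb3* (-0.88 ± 0.55) passed 1.5-fold. With probe sets averaged, *Efna2* had -0.52 and *Efna5* -0.58, within it. *Efnb1*, an X-linked ligand, was lower at day 8, with 9.55 against 10.34 in wild type EBs (-0.80 ± 0.28, all 16 probe sets).

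Both Slits measured and 2 of the 3 Robos compared were lower at day 4. *Slit2*, the repellent of the midline and of vessels, had 9.62 and 10.71 in wild type EBs and 8.10 and 9.81 in *Mst-/-* EBs. Each of its 47 probe sets was lower on both days, 2.87-fold at day 4 (-1.52 ± 0.47) and 1.87-fold at day 8 (-0.90 ± 0.22). *Robo1*, its receptor, had 10.93 and 9.82 in wild type EBs and 9.20 and 10.11 in *Mst-/-* EBs. The wild type signal was thus the higher one at day 4 (-1.73 ± 0.33, 3.32-fold) and the lower one at day 8 (0.29 ± 0.13). *Slit1* was 2.51-fold lower at day 4 (-1.33 ± 1.00), and *Robo3*, a receptor of commissural axons, at least 1.54-fold lower. *Robo4*, the Robo of vessels, had 0.01 and -0.27. *Robo2* was below background at day 4 in both genotypes and reached 9.60 and 9.64 at day 8 (difference 0.04 ± 0.21).

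Of the netrin system, *Unc5c*, a repulsive netrin receptor, differed most. Its signals were 8.89 and 11.08 in wild type EBs at day 4 and day 8 and 6.94 and 10.73 in *Mst-/-* EBs, so that it was at least 3.81-fold lower at day 4 and within 1.5-fold at day 8 (-0.35 ± 0.16). Its brightest probe set gave -0.63 at day 4. *Unc5b*, the Unc5 receptor of vessels, had -0.38 ± 0.15 and -0.05 ± 0.15, and *Neo1*, which binds netrins and RGM proteins, -0.38 ± 0.28 and -0.46 ± 0.23. *Ntn1* had -0.25 and 0.06. *Ntn4*, a netrin of basement membranes, was the one netrin past 1.5-fold at day 4 (-0.80 ± 0.66), but with *Mst-/-* EBs below background its bound was 1.45-fold.

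The 30 day 4 differences depended in part on the probe sets used. When a gene was read by its brightest probe set in place of the median, 13 of the 30 lay within 1.5-fold: *Efna2*, *Epha1*, *Epha2*, *Ephb2*, *Ntn4*, *Plxnd1*, *Robo3*, *Sema3d*, *Sema3f*, *Sema4b*, *Sema6a*, *Sema7a* and *Slit2*. *Sema3a* (-1.27), *Plxna2* (-2.24), *Robo1* (-1.42), *Sema6d* (-2.50), *Epha4* (-1.06), *Sema3e* (1.73) and *Sema4d* (1.03) were still over 2-fold apart by that measure.

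By day 8 fewer of these genes differed between the genotypes. Of 57 members compared, *Mst-/-* EBs had 13 (22.8%) over 1.5-fold lower and 1 (1.75%) higher, with 43 within 1.5-fold, while of all 12182 genes 8.21% were lower and 8.42% higher. The medians were -0.23 for the members and 0.05 for all genes. Of the 23 genes lower at day 4, 8 were also lower at day 8 (*Efnb3*, *Epha7*, *Nrp1*, *Plxna4*, *Plxnd1*, *Sema3a*, *Sema6d* and *Slit2*), 14 lay within 1.5-fold, and *Robo3* was below background. The same overlap was not counted over all genes, so it is not shown to be particular to the guidance genes. Plexins made up 4 of the 13, with a group median of -0.67. *Plxnc1* had 8.92 in wild type EBs and 7.50 in *Mst-/-* EBs (-1.42 ± 0.70, 2.67-fold lower), and *Plxnb2*, a broadly used receptor of class 4 semaphorins, 11.60 and 10.76 (-0.84 ± 0.18, each of 49 probe sets). At day 4 they had 0.11 and 0.08. With the brightest probe sets, *Nrp1* (-0.43), *Sema3a*, *Plxnd1*, *Epha2* and *Epha3* (-0.24) lay within 1.5-fold at day 8. Across the 55 genes compared on both days, the day 4 differences and the day 8 differences, from separate arrays, had a Pearson r of 0.43 and a Spearman rho of 0.39, beside 0.39 and 0.35 for all genes. The sign was the same on both days for 39 of these 55 genes and for 7082 of all 11600 genes so compared. Genes are not independent replicates.

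**Figure D4:**
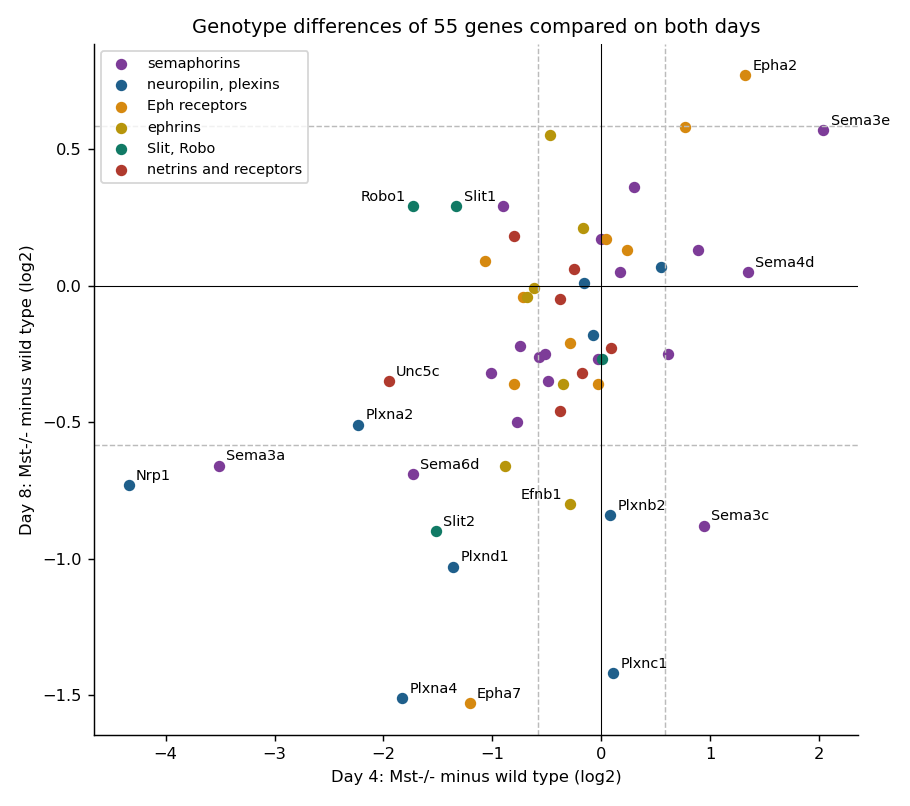
Log2 difference *Mst-/-* minus wild type of 55 genes at day 4 (x axis) and day 8 (y axis), coloured by family, with dashed lines at 1.5-fold. *Nrp1* lies at -4.34 and -0.73 and *Sema3a* at -3.51 and -0.66, *Epha2* is alone beyond both upper lines, and *Sema3c* alone is beyond the right and the lower line. Signals below background are used as measured.

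The course from day 4 to day 8 was compared within each genotype. In wild type EBs 17 of 59 members (28.8%) were over 1.5-fold higher at day 8 and 10 (16.9%) lower, beside 16.7% and 12.7% of all 12084 genes, or 29.4% in either direction. In *Mst-/-* EBs 21 of 57 (36.8%) were higher and 6 (10.5%) lower, beside 13.3% and 7.48% of all 12143 genes, or 20.7% in either direction. The shares over all genes depended on the scaling: with arrays centred on their medians, which moved the median of all genes from -0.02 to -0.14 in wild type EBs, they were 13.7% higher and 17.9% lower there and 10.9% and 11% in *Mst-/-* EBs. Quantile normalization gave 14.6% and 15.4%, and 11.3% and 9.70%. Of the members 15 were higher and 10 lower in wild type EBs with centred arrays, so that their share of lower genes lay on the other side of that of all genes. The medians of the members were 0.24 and 0.33 in wild type and *Mst-/-* EBs. In all, 10 members were higher at day 8 in both genotypes, an overlap that was not counted over all genes. Among them was *Robo2*, a receptor of Slits, which was at least 5.93-fold higher in wild type and at least 6.43-fold higher in *Mst-/-* EBs. *Efna1*, an ephrin also induced in vessels, was 2.71-fold and 3.53-fold higher. *Epha1*, *Epha2* and *Ntn1* were lower in both, *Epha1* by 4.17-fold and 4.77-fold, although its brightest probe set gave -0.19 and -0.24.

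Some genes had a steeper course in *Mst-/-* EBs. *Nrp1* was 2.39-fold higher at day 8 in wild type EBs (1.25 ± 0.26) and had 4.86 ± 1.33 in *Mst-/-* EBs, measured from a day 4 signal at background, with 0.85 by the brightest probe set. *Unc5c* was 4.56-fold higher at day 8 in wild type and at least 13.6-fold higher in *Mst-/-* EBs, with 0.87 and 1.5 by the brightest probe set. *Sema3a* was at least 3.81-fold higher at day 8 in *Mst-/-* EBs (1.30 by the brightest probe set) and had 0.05 ± 0.31 in wild type EBs. *Sema3e* was lower at day 8 in *Mst-/-* EBs (-1.73 ± 0.57) and had -0.27 ± 0.30 in wild type EBs. In the other direction, *Plxnc1* and *Plxnb2* were 2.58-fold and 2.60-fold higher at day 8 in wild type EBs and within 1.5-fold in *Mst-/-* EBs. In *Mst-/-* EBs 9 genes were higher at day 8 that lay within 1.5-fold in wild type EBs: *Efna5*, *Epha4*, *Ephb2*, *Ephb4*, *Sema3a*, *Sema3f*, *Sema5a*, *Sema6d* and *Unc5b*. All but *Unc5b* were among the genes lower at day 4, and both comparisons share the day 4 *Mst-/-* array. How many of all genes had such a course was not counted. Between the genotypes, these courses were not compared by a test, as each rests on 1 array per day.

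**Figure D5:**
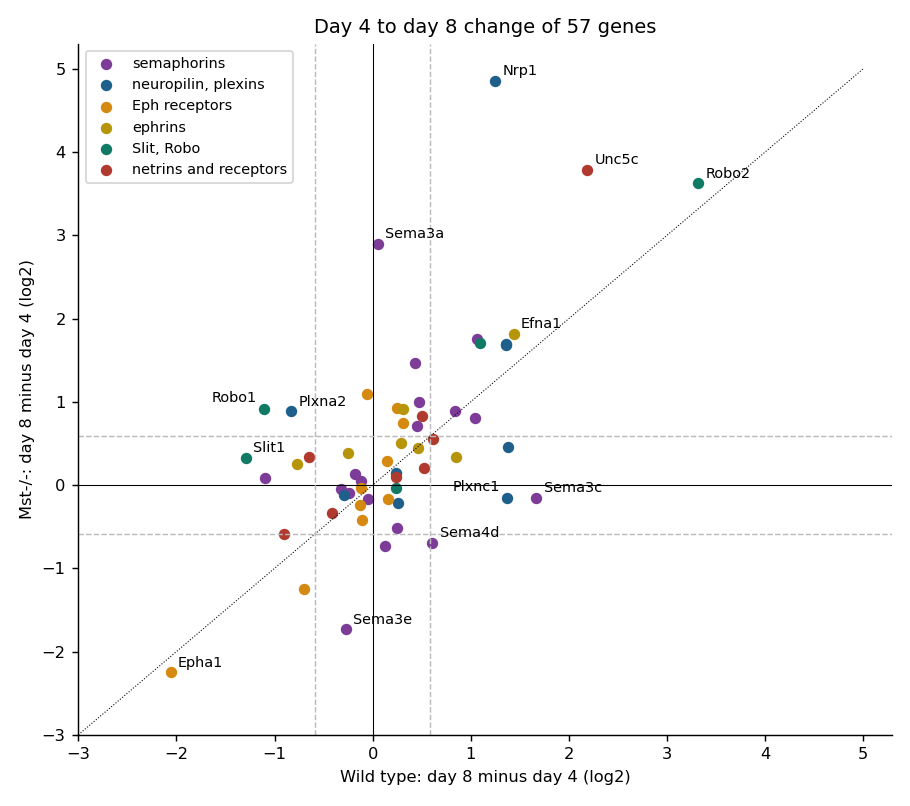
Log2 difference day 8 minus day 4 of 57 genes in wild type EBs (x axis) and *Mst-/-* EBs (y axis), coloured by family. The dotted line marks equal courses and the dashed lines 1.5-fold. *Nrp1* (1.25 and 4.86), *Unc5c* (2.19 and 3.79) and *Sema3a* (0.05 and 2.90) lie above the line, *Sema3c* (1.67 and -0.15) and *Sema3e* (-0.27 and -1.73) below it.

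Partners of the guidance genes were compared from 2 lists. Co-factors, that is further ligands, co-receptors and the proteases that shed them, were lower past 1.5-fold in 10 of 27 cases and higher in 1 case at day 4 in *Mst-/-* EBs (median -0.28). *Kdr*, the VEGF receptor that pairs with *Nrp1*, had 11.22 and 10.96 in wild type EBs and 7.11 and 9.83 in *Mst-/-* EBs, so that it was low on the same array as *Nrp1* (-4.11 ± 0.82 at day 4, -1.13 ± 0.19 at day 8). *Flrt3*, an adhesion protein that binds Unc5 receptors, had -1.54 ± 0.38 at day 4 and 0.39 at day 8, and the adhesion genes *L1cam* and *Nrcam* had -1.27 ± 0.43 and 1.18 ± 0.38 at day 4. At day 8, 3 of 28 co-factors were lower and 1 higher (median 0.05). Of 34 intracellular partners compared, 5 were lower and 1 higher at day 4 (median -0.08), and 2 lower and none higher at day 8 (median -0.04). These counts can be read beside the 8.52% and 8.21% of all genes that were lower on these days. The lower ones at day 4 included *Dpysl5* (-1.40 ± 0.41) and *Dpysl2* (-1.15 ± 0.17), which carry semaphorin signals to microtubules, and *Mical1* (-1.23 ± 0.35), an enzyme that binds plexins and acts on actin.

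Markers of several cell types were compared in the same way, and their lists differed in direction. All 12 early mesoderm genes were below 0 at day 4 and 11 over 1.5-fold lower in *Mst-/-* EBs (median -1.86). At day 4 the summed signal of the list, on the log2 scale, was 14.87 in wild type and 13.66 in *Mst-/-* EBs. At day 8 the sums were 13.29 and 13.39, but single genes differed in both directions. Of 10 early mesoderm genes compared at day 8, 4 were higher and 2 lower in *Mst-/-* EBs (median -0.02). Of 15 endothelial genes at day 4, 5 were lower and 3 higher (median -0.05), with summed signals of 13.24 and 12.53, and of 17 at day 8, 7 were lower and 2 higher, with 13.92 and 13.41. *Etv2*, the regulator of early endothelium, had -2.57 ± 0.57 at day 4, and *Pecam1*, which ES cells also express, 2.76 ± 0.94. Of 7 mesenchyme genes at day 4, 1 was lower and 1 higher (median -0.12). Of 10 at day 8, 7 were lower and none higher (median -2.12), with summed signals of 15.37 and 13.01. Neuronal markers went the other way from most guidance genes: of 13 at day 4, 8 were higher and 1 lower in *Mst-/-* EBs (median 0.77), with summed signals of 13.19 and 13.70, and of 11 at day 8, 3 were higher and none lower, with 11.92 and 12.41. *Tubb3* (2.07 ± 0.87) and *Nefl* (2.63 ± 0.57) were among those higher at day 4, and *Stmn2* (-1.24 ± 0.28) was the lower one. Of 8 neural progenitor genes at day 4, 1 was higher and 1 lower, with summed signals of 13.01 and 12.96. Of 9 at day 8, 2 were higher and 1 lower (median -0.10), with 11.87 and 12.21. *Otx2* (1.61 ± 0.56) was among those higher at day 8, and *Lhx2* (-1.77 ± 0.91) was the lower one. Pluripotency genes were higher in *Mst-/-* EBs on both days, 9 of 12 at day 4 and 11 of 12 at day 8, with summed signals of 14.33 and 15.58 at day 4 and 12.95 and 14.68 at day 8. Of the visceral endoderm genes, 4 of 10 were lower and none higher at day 4 (median -0.10), and 5 of 11 lower and 2 higher at day 8 (median -0.46). The part of these cell types in the guidance gene values was not tested.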

How the data were processed

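RNA of 4 EB samples was hybridized to exon arrays of the mouse (Affymetrix, 1 per sample). The deposited table gives a log2 signal for each of 229581 probe sets. Affymetrix Expression Console is the tool in the submitters' processing notes. The authors' methods name Partek and Genespring, with a threshold of 1.5-fold. For the normalization of the log2 signals the method is not given in the sources used. Once sorted, the arrays differed by at most 0.17, so a change of total RNA would not be seen. The day 8 *Mst-/-* array carries a conflicting label of day 4 and was placed by its title.

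The platform annotation gave 1 symbol for 209279 probe sets. Those with several or none were left out, among them 22 that *Nrp2* shares with *Pard3b*, so *Nrp2* was not analysed here. *Sema3g*, *Sema4c*, *Slit3*, *Efna3* and *Plxnb3* were not among the members either. Members were matched on the annotated symbol, and for other genes 2145 older symbols were updated through RefSeq. Members and lists were chosen with earlier results of these data known. Any member could be named, also where it lay within 1.5-fold. The alternatives were followed for members past 1.5-fold with at least 3 probe sets and 75% of them in the same direction and for the 10 largest day courses of a genotype. Of each other list up to 4 genes with the largest genotype differences were named, and *Stmn2*, as the 1 lower neuronal gene, was added after its values were seen. With 1 array per group nothing was tested, and the number of arrays limits the precision. Alternatives changed the summary over probe sets, the scaling, the background and the threshold. The code was tested on simulated arrays. Python 3.11.15, numpy 2.4.6, pandas 2.3.3 and matplotlib 3.10.9 were used.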

Additional observations from a re-analysis of the deposited data

Results flagged for a closer look

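Differences between the genotypes, or courses between the days, that pointed in opposite directions past 1.5-fold were singled out. None of these contrasts could be tested with 1 array per condition. *Sema3c* had a difference between *Mst-/-* and wild type EBs of 0.94 at day 4 and of -0.88 at day 8, and with the day 4 wild type array raised to background the former was 0.49. *Robo1* differed between day 8 and day 4 by -1.11 in wild type EBs and by 0.91 in *Mst-/-* EBs. *Plxna2* had -0.83 and 0.89 in the same order. *Sema4d* had 0.61 in wild type EBs, just past the threshold of 0.585, and -0.69 in *Mst-/-* EBs.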

How the results depend on the processing

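Counts of members past 1.5-fold were within 1.5 times of those given under most alternatives. Genes higher in *Mst-/-* EBs at day 4 numbered 3 of 63 with the brightest probe sets, beside 6.75% of all genes. Those higher at day 8 numbered 3 with probe sets averaged, 2 with probe sets above background alone and 2 with quantile normalization. The shares of all genes were 7.15%, 7.34% and 8.4% there. Genes lower at day 8 than at day 4 numbered 4 of 63 in wild type and 3 of 63 in *Mst-/-* EBs with the brightest probe sets. Of all genes 7.9% and 5.01% were lower, so both member shares then lay below those of all genes, unlike in the main result. At a threshold of 2-fold, 13 members were lower and 3 higher in *Mst-/-* EBs at day 4, beside 3.27% and 4.35% of all genes. At day 8, 5 were lower and 0 higher, beside 3.68% and 2.56%. In the courses 4 were lower in wild type EBs, beside 3.53% of all genes. In *Mst-/-* EBs 11 were higher and 3 lower, beside 6.43% and 1.89%. The median difference of day 4 was -0.54 against the 99th percentile background. The course median of wild type EBs was 0.09 with the brightest probe sets, 0.12 with arrays centred and 0.13 with quantile normalization. That of *Mst-/-* EBs was 0.09, 0.48 with the 99th percentile background and 0.22 with quantile normalization.

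Of 64 differences of named members, 38 stayed past 1.5-fold in each alternative that gave a value. With the brightest probe set 40 of 64 did. Under that choice 5 changed sign: *Plxnd1* with 0.01 and 0.08 between genotypes at day 4 and day 8 and -0.13 and -0.06 in the courses of wild type and *Mst-/-* EBs, and *Sema4b* with -0.16 at day 4. The cause was not tested. No paired analysis was possible because each condition has 1 array and no replicate numbers, and the days are conditions rather than replicates.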
